A study of Mus musculus with 12 samples.

Results

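The genes described here encode the enzymes that write and erase methyl groups on lysine and arginine: the SET-domain and DOT1L lysine methyltransferases, the lysine demethylases, and the protein arginine methyltransferases. Members were chosen by symbol among the protein-coding genes of the deposited count table (Kmt, Setd, Ehmt, Suv39h, Ezh, Nsd, Dot1l, Smyd, Kdm, Prmt and Carm1 symbols), which gave 59 of the 34513 genes listed: 33 SET-domain or DOT1L methyltransferases, 17 lysine demethylases and 9 arginine methyltransferases. The rule used no measured value, though it was chosen with earlier results of these data known. The expression filter of the fit kept 58 of the 59, among 18338 genes in all. The member that was not tested was Prmt8, an arginine methyltransferase known from brain, with 0 counts in the B16F0 and B16F10 libraries and 0 to 7 counts in those of Melan-A.

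RNA came from cultures of 3 mouse cell lines, non-tumorigenic Melan-A melanocytes and the tumorigenic melanoma lines B16F0 and B16F10, each left untreated or given SX-682, an antagonist of the chemokine receptors CXCR1 and CXCR2. Each of the 6 groups held 2 libraries, and the labels name no engineered allele in any group. The labels give neither the dose nor the time of SX-682 for these cultures, nor whether replicates were separate cultures, so p-values measure only the spread between these libraries, which may be technical. The comparison of SX-682 with untreated cells within a line asks how the antagonist acts on cultured melanocytic cells, away from the stromal and immune cells of a tumor.

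Methyl groups on histone tails mark chromatin states. H3K4 methylation is known from active promoters and enhancers, H3K36 and H3K79 methylation from transcribed gene bodies, H3K9 and H4K20 methylation from heterochromatin, and H3K27 methylation from genes silenced by Polycomb. SET-domain enzymes and DOT1L add the lysine marks, the FAD-dependent KDM1 and the iron- and oxoglutarate-dependent Jumonji KDM families remove them, and the PRMT family methylates arginines on histones, splicing factors and signaling proteins. In melanoma, EZH2 and SETDB1 are known as amplified or activated drivers, and KDM5B is known to mark slow-cycling cells.

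Between 48876982 and 85322092 counts per library were assigned to genes. Levels are given as CPM, counts scaled by library size with TMM factors, so every change is relative to all counted RNA, and in bulk RNA a change in the share of cells and a change in RNA per cell cannot be told apart. Changes, and the signed values given for them, are log2 fold changes from edgeR's quasi-likelihood test with a standard error (SE) and a Benjamini-Hochberg adjusted p over the 18338 genes, called at 0.05. Replicates lay close together (biological coefficient of variation 2.78%), so that changes of modest size could pass. An exact permutation of the libraries of 1 line cannot give a 2-sided p under 0.333. The 8 melanocyte markers summed to 1350 to 1380 CPM in Melan-A and 15300 to 25200 CPM in the B16 lines. Sox10 and Mitf were present in untreated Melan-A at 655 to 685 and 101 to 103 CPM, while Tyr (tyrosinase) was near absent there at 0.76 to 0.892 CPM. Pmel and Slc45a2 were also low there, at 7.53 to 8.7 and 7.12 to 7.45 CPM. In untreated B16F0 these were 4480 to 4550 and 694 to 706 CPM. Dct, Mlana and Tyrp1 lay at 351 to 358, 114 to 119 and 105 to 108 CPM in untreated Melan-A. With SX-682 the marker sum went from between 19300 and 19400 to between 16200 and 16400 CPM in B16F0 and from between 25100 and 25200 to between 15300 and 15500 CPM in B16F10. The part of this in the changes below was not tested. The 4 keratinocyte markers summed to at most 4.05 CPM and the 4 leukocyte markers to at most 0.266 CPM. The 4 fibroblast markers summed to 51.4 to 53.8 CPM in Melan-A, 15.9 to 16.6 CPM in B16F0 and 8.42 to 9.72 CPM in B16F10. These sums were similar with and without SX-682 in each line. Most of the Melan-A sum was Col1a1, at 45.7 to 47.1 CPM untreated. Col1a2 differed the other way, at 0.614 to 0.914 CPM in untreated Melan-A and 4.5 to 5.79 CPM in untreated B16F10. Single fibroblast markers moved within these sums. With SX-682, Dcn went from 2.23 to 2.77 down to 0.856 to 1.09 CPM in Melan-A. In B16F0, Col1a1 rose from 5.73 to 5.86 up to 7.85 to 8.93 CPM and Pdgfra fell from 7.84 to 8.38 down to 5.6 to 6.07 CPM.

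The lysine demethylases rose more often than they fell. Their summed level was 1432 and 1435 CPM in the untreated Melan-A libraries and 1718 and 1703 CPM with SX-682, 1043 and 1056 against 1387 and 1364 CPM in B16F0, and 1245 and 1257 against 1608 and 1630.4 CPM in B16F10. The SX-682 libraries lay above the untreated ones in each line. Of the 17 demethylases, 10 (58.8%) were raised and 4 (23.5%) lowered in Melan-A, 11 (64.7%) and 4 (23.5%) in B16F0, and 11 (64.7%) and 5 (29.4%) in B16F10. Of all genes tested, 23.4% were raised and 24.7% lowered in Melan-A, 25.1% and 25.0% in B16F0, and 25.5% and 25.3% in B16F10, so the lowered shares of the demethylases were near the background. Here and below, this background was not matched for level. They had median log2 fold changes of 0.26, 0.41 and 0.36 against a median of 0 over all genes tested in each line. Of the 33 SET-domain or DOT1L methyltransferases, 8 (24.2%) were raised and 17 (51.5%) lowered in Melan-A, 16 (48.5%) and 10 (30.3%) in B16F0, and 14 (42.4%) and 11 (33.3%) in B16F10. Their raised share in Melan-A and their lowered share in B16F0 were near those of all genes. Their median changes were -0.13, 0.075 and 0.12. Their summed level was 2346 and 2351 CPM untreated and 2222 and 2223 CPM with SX-682 in Melan-A, but 2507 and 2547 against 2750.3 and 2795 CPM in B16F0 and 2472 and 2483 against 2726 and 2732 CPM in B16F10. Of the 8 arginine methyltransferases tested, 3 were raised and 2 lowered in Melan-A and 2 raised and 3 lowered in B16F10. In B16F0, 2 were raised and the rest did not pass the test. 

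**Figure D1:**
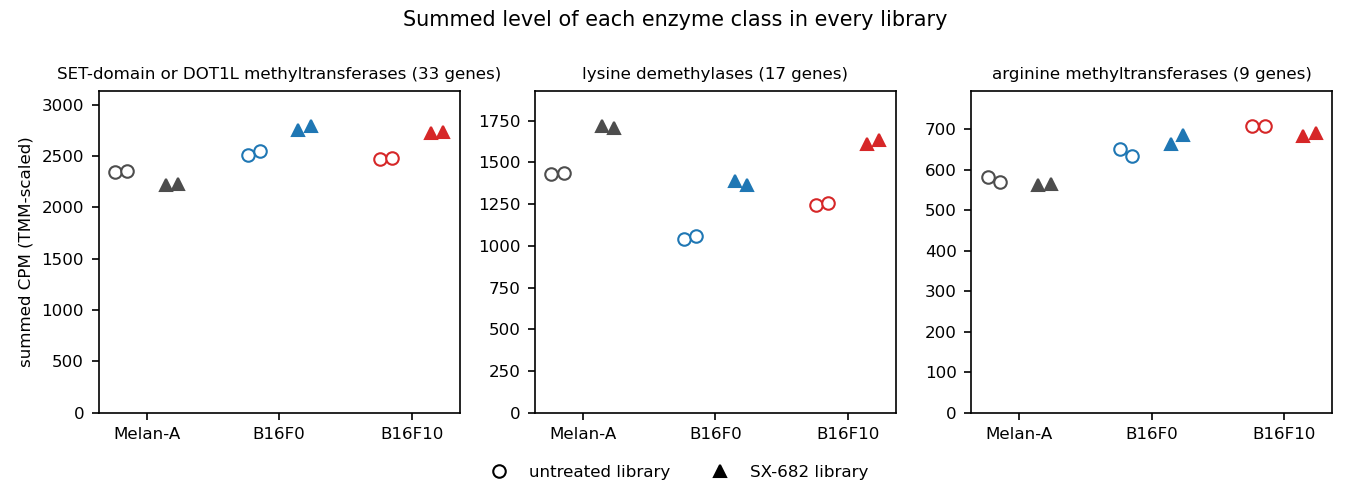
Summed CPM (TMM-scaled, axes from 0) of the 33 SET-domain or DOT1L methyltransferases, 17 lysine demethylases and 9 arginine methyltransferases in each of the 12 libraries, open circles untreated and filled triangles SX-682. The demethylase sum was higher with SX-682 in each line, from 1432 and 1435 to 1718 and 1703 CPM in Melan-A, while the SET-domain sum was lower with SX-682 in Melan-A and higher in the B16 lines.

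Over all members, 21 of the 58 tested were raised and 23 lowered by SX-682 in Melan-A, where 23.4% of all genes tested were raised and 24.7% lowered. In B16F0, 29 members were raised and 14 lowered, against 25.1% and 25.0% of all genes. In B16F10, 27 were raised and 19 lowered, against 25.5% and 25.3%. The raised share of the members, 50% in B16F0 and 46.6% in B16F10, was thus above that of all genes, and the lowered share in B16F0, 24.1%, was near it. All genes tested were not matched to the members for level, and 11686 of the 18338 had a mean log2 CPM of at least 1. Raised in all 3 lines were 18 members, 31% against 11.3% of all genes, and lowered in all 3 were 11, 19% against 11.7%. A further 9 members were called in opposite directions in different lines, 7 were raised in some lines, 9 lowered in some, and 4 (Ehmt1, Setdb2, Prmt2 and Kdm4d) were not called in any line. Of these, Prmt2 was called as lower in B16F0 or B16F10 under some alternatives, among them no filter on low counts, with -0.11 (adjusted p = 0.0235) in B16F0 and -0.11 (adjusted p = 0.0252) in B16F10. Sizes were modest. The median absolute log2 fold change of the members was 0.20 (Melan-A), 0.30 (B16F0) and 0.27 (B16F10), below the 0.31, 0.32 and 0.36 of all genes tested. Across the 58 members the changes correlated between lines with r = 0.77 for Melan-A and B16F0, 0.74 for Melan-A and B16F10 and 0.63 for B16F0 and B16F10 (Spearman's rho 0.74, 0.83 and 0.83). Over the 11686 genes with a mean log2 CPM of at least 1, r was 0.385, 0.439 and 0.54 for the same pairs. These r put the pairs of lines in another order than the r of the members, but in the order of the members' rho (0.742, 0.832 and 0.834). The member values had no such limit on level. They include Smyd1 (-0.06 in B16F0 and -3.14 in B16F10) and Kdm4d (1.73 and 0.53), which have few counts. This is a description across genes, which share their libraries and are not independent replicates.

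**Figure D2:**
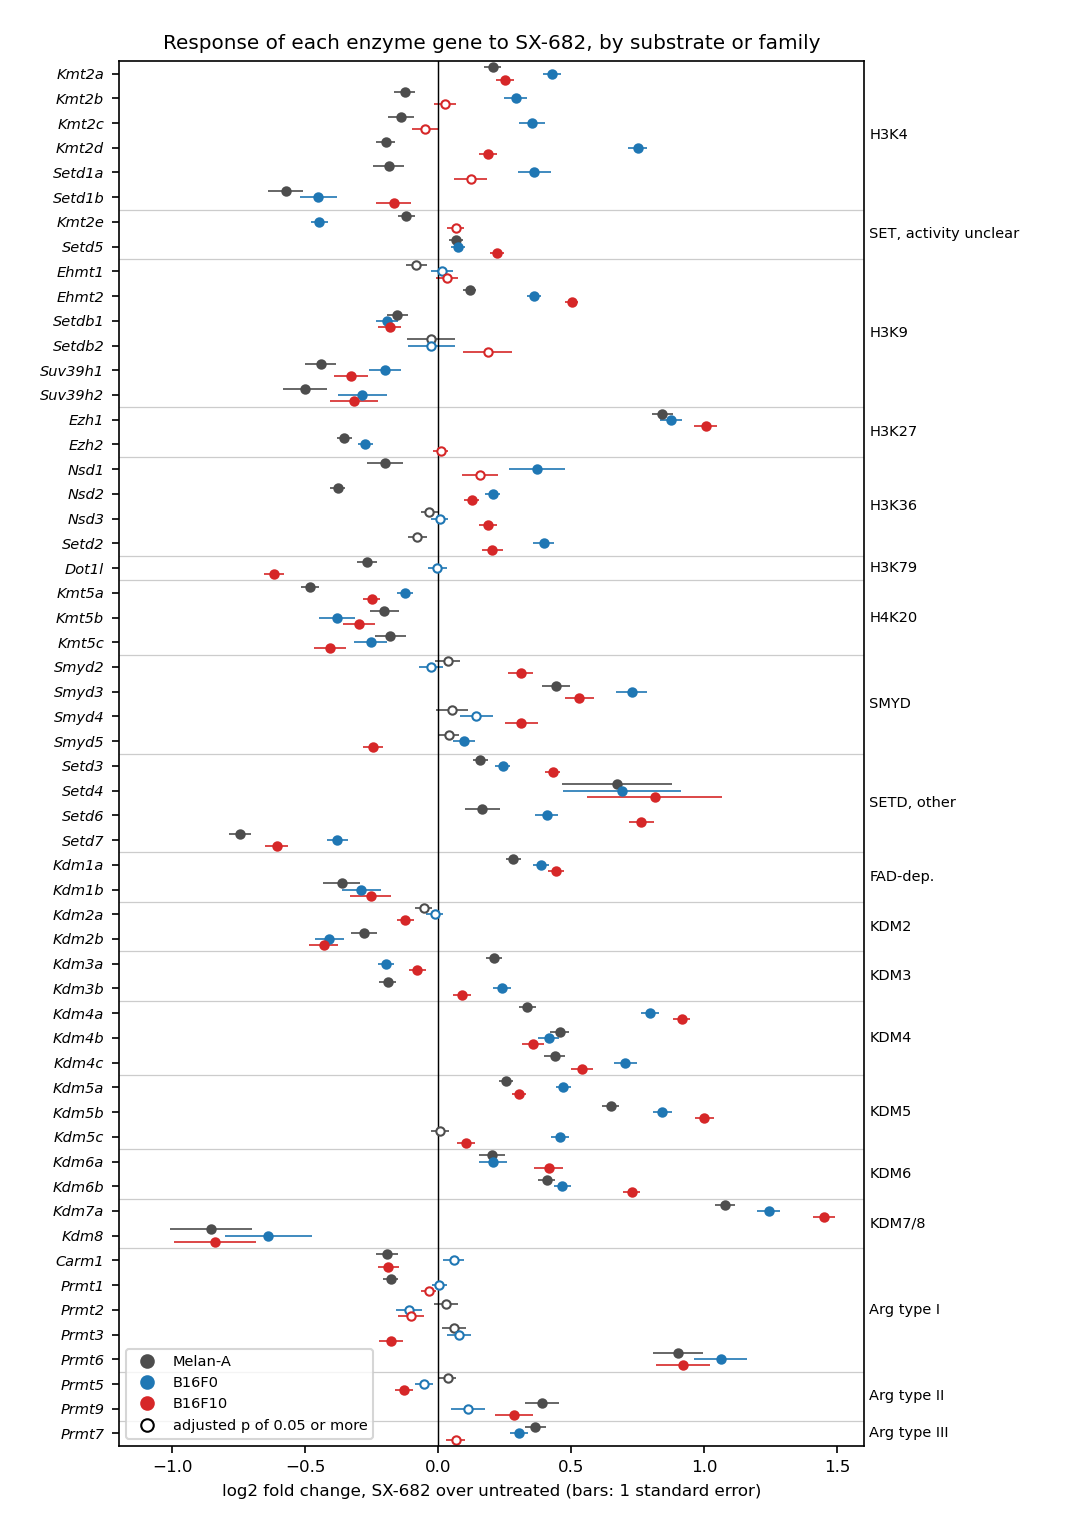
Log2 fold change of SX-682 over untreated with 1 SE (x axis) for 56 member genes grouped by substrate or family (y axis), in Melan-A, B16F0 and B16F10, with open points where the adjusted p was 0.05 or more. Prmt8, Smyd1 and Kdm4d, with few counts, are left out; Kdm7a lies farthest right at 1.08, 1.24 and 1.45 and Kdm8 farthest left in Melan-A at -0.85.

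The H3K27 enzymes moved apart. EZH1 and EZH2 are the alternative catalytic subunits of Polycomb repressive complex 2, EZH2 being known from dividing and EZH1 from resting cells. Ezh1 (ENSMUSG00000006920.14, GRCm38 chr11:101191115-101226463) measured 52.01 and 54.3 CPM in the untreated and 96.03 and 94.5 CPM in the SX-682 libraries of Melan-A, 52.3 and 49.1 against 90.8 and 95.4 CPM in B16F0, and 34.6 and 32.5 against 66.5 and 68.1 CPM in B16F10. Both SX-682 libraries lay above both untreated ones in each line, with no overlap. The log2 fold change was 0.84 ± 0.0391 (SE, adjusted p = 4.06e-17) in Melan-A, 0.87 ± 0.0406 (SE, adjusted p = 3.19e-17) in B16F0 and 1.0 ± 0.0437 (SE, adjusted p = 4.97e-18) in B16F10. Ezh2 measured 219 and 209.7 CPM in the untreated and 167 and 169 CPM in the SX-682 libraries of Melan-A, 199.6 and 202 against 165 and 167 CPM in B16F0, and 194 and 202 against 198 and 200.3 CPM in B16F10. Its SX-682 libraries were below the untreated ones in Melan-A and B16F0 and overlapped them in B16F10. It fell by 0.35 on the log2 scale in Melan-A (SE 0.0275, adjusted p = 5e-12) and by 0.27 in B16F0 (SE 0.0281, adjusted p = 1.47e-09), and in B16F10 the difference was 0.009 ± 0.0279 (SE, adjusted p = 0.846). The B16F10 response differed from that of B16F0 by 0.28 ± 0.0397 (SE, adjusted p = 1.61e-06).

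The demethylases of H3K27 rose. KDM6A (UTX) and KDM6B (JMJD3) remove H3K27 methylation and oppose Polycomb. Kdm6a measured 29.8 and 30.2 CPM in the untreated and 34.7 and 34.4 CPM in the SX-682 libraries of Melan-A, 29.5 and 30.5 against 35.1 and 34.03 CPM in B16F0, and 25.7 and 23.5 against 32.5 and 33.1 CPM in B16F10. Kdm6b measured 75.4 and 76.9 CPM in the untreated and 101 and 101 CPM in the SX-682 libraries of Melan-A, 66.9 and 68.7 against 93.2 and 94.1 CPM in B16F0, and 68.4 and 67.3 against 111 and 113 CPM in B16F10. The untreated and SX-682 libraries did not overlap for either gene in any line. The log2 fold changes were 0.20 (Melan-A), 0.21 (B16F0) and 0.42 (B16F10) for Kdm6a (largest adjusted p = 0.00125) and 0.41 (Melan-A), 0.47 (B16F0) and 0.73 (B16F10) for Kdm6b (largest adjusted p = 3.84e-12). Kdm6b shares 4.11% of its exonic bases with an antisense gene on the opposite strand, and the strand setting of the counting is not given in the sources used here.

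The largest called rise of a member in each line was that of Kdm7a. KDM7A (ENSMUSG00000042599.8, chr6:39136623-39206789) is a Jumonji enzyme with a PHD finger that demethylates H3K9 and H3K27. Kdm7a measured 60.9 and 59.4 CPM in the untreated and 127 and 127 CPM in the SX-682 libraries of Melan-A, 40.1 and 40.1 against 99.8 and 89.5 CPM in B16F0, and 42.05 and 41.6 against 112 and 117 CPM in B16F10. In every line each SX-682 library was above both untreated ones. Its log2 fold change was 1.08 ± 0.0384 (SE, adjusted p = 8.61e-20) in Melan-A, 1.24 ± 0.0417 (SE, adjusted p = 1.49e-20) in B16F0 and 1.45 ± 0.0415 (SE, adjusted p = 2.13e-22) in B16F10, which is 2.11-, 2.36- and 2.73-fold. Kdm8 (JMJD5, ENSMUSG00000030752.8, chr7:125444676-125462269), a Jumonji protein first described as an H3K36 demethylase, went the other way. Kdm8 measured 4.05 and 4.39 CPM in the untreated and 2.36 and 2.32 CPM in the SX-682 libraries of Melan-A, 3.43 and 3.39 against 2.10 and 2.31 CPM in B16F0, and 4.58 and 5.95 against 2.90 and 2.99 CPM in B16F10. Both SX-682 libraries lay below both untreated ones in each line, and the untreated B16F10 pair was the widest apart. The log2 fold change was -0.85 ± 0.152 (SE, adjusted p = 2.23e-05) in Melan-A, -0.64 ± 0.164 (SE, adjusted p = 0.00158) in B16F0 and -0.84 ± 0.153 (SE, adjusted p = 2.69e-05) in B16F10.

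The families that erase H3K9 and H3K4 methylation held further rises. KDM4 enzymes remove H3K9 and H3K36 trimethylation. Kdm4a measured 81.5 and 81.7 CPM in the untreated and 105 and 101 CPM in the SX-682 libraries of Melan-A, 67.95 and 70.5 against 119.9 and 121 CPM in B16F0, and 96.6 and 98.2 against 181 and 186 CPM in B16F10, with no overlap of groups in any line. The log2 fold change was 0.33 ± 0.0315 (SE, adjusted p = 2.72e-10) in Melan-A, 0.80 ± 0.0326 (SE, adjusted p = 1.77e-18) in B16F0 and 0.91 ± 0.0314 (SE, adjusted p = 1.72e-20) in B16F10. Kdm4b and Kdm4c were raised as well, with log2 fold changes of 0.46 (Melan-A), 0.41 (B16F0) and 0.36 (B16F10) for Kdm4b and 0.44 (Melan-A), 0.70 (B16F0) and 0.54 (B16F10) for Kdm4c (largest adjusted p = 7.29e-09 for Kdm4b and 1.07e-10 for Kdm4c). Kdm4d, a testis-enriched member without the reader domains of the others, had 0 to 27 counts per library and was not called in any line.

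KDM5 enzymes remove H3K4 trimethylation. Kdm5b (ENSMUSG00000042207.17, chr1:134560171-134635285) measured 94.1 and 96.2 CPM in the untreated and 147 and 152 CPM in the SX-682 libraries of Melan-A, 60.1 and 61.97 against 111 and 108 CPM in B16F0, and 50.4 and 51.4 against 100 and 104 CPM in B16F10. Its SX-682 libraries were above the untreated ones throughout. The log2 fold change was 0.65 ± 0.0320 (SE, adjusted p = 1.67e-16) in Melan-A, 0.84 ± 0.0344 (SE, adjusted p = 1.63e-18) in B16F0 and 1.0 ± 0.0355 (SE, adjusted p = 3.79e-20) in B16F10. Kdm5a was raised, with log2 fold changes of 0.26 (Melan-A), 0.47 (B16F0) and 0.30 (B16F10). Kdm5c, an X-linked member, measured 125 and 119.7 CPM in the untreated and 123 and 123 CPM in the SX-682 libraries of Melan-A, 76.7 and 80.02 against 111 and 104 CPM in B16F0, and 155 and 151 against 163 and 166 CPM in B16F10. The groups overlapped in Melan-A and did not in the B16 lines. Its change was 0.007 ± 0.0324 (SE, adjusted p = 0.884) in Melan-A, 0.46 ± 0.0345 (SE, adjusted p = 2.17e-12) in B16F0 and 0.10 ± 0.0325 (SE, adjusted p = 0.00768) in B16F10. The B16F10 call rested on single libraries: it was 0.078 (adjusted p = 0.131) without replicate 2 of the untreated B16F10 libraries and 0.092 (adjusted p = 0.0707) without replicate 2 of the SX-682 libraries.

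The KDM1 pair split. KDM1A (LSD1), the FAD-dependent enzyme of the CoREST complex that removes H3K4 mono- and dimethylation, was raised. Kdm1a measured 164 and 159.6 CPM in the untreated and 197 and 196 CPM in the SX-682 libraries of Melan-A, 124 and 127 against 163 and 166 CPM in B16F0, and 97.9 and 103 against 136 and 136 CPM in B16F10. No SX-682 library overlapped the untreated ones of its line. The change was 0.28 ± 0.0282 (SE, adjusted p = 9.25e-10) in Melan-A, 0.39 ± 0.0294 (SE, adjusted p = 2.64e-12) in B16F0 and 0.44 ± 0.0302 (SE, adjusted p = 1.86e-13) in B16F10. Its paralog Kdm1b (LSD2), which acts in gene bodies, was lowered, with log2 fold changes of -0.36 (Melan-A), -0.29 (B16F0) and -0.25 (B16F10). That call was lost in B16F0 without replicate 2 of the SX-682 libraries, at -0.19 (adjusted p = 0.0581), and in B16F10 without replicate 1 of the untreated libraries, at -0.21 (adjusted p = 0.0832), or replicate 2 of the SX-682 libraries, at -0.16 (adjusted p = 0.157). Kdm1b shares 9.19% of its exonic bases with Dek on the opposite strand.

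The KDM2 enzymes bind unmethylated CpG islands through a CXXC domain and act on H3K36. Kdm2b, which also recruits a Polycomb repressive complex 1 variant, was lowered, with log2 fold changes of -0.28 (Melan-A), -0.41 (B16F0) and -0.43 (B16F10) (largest adjusted p = 2.38e-05) and shares 8.74% of its exonic bases with neighbors that include Rnf34. Kdm2a was called in B16F10, with a log2 fold change of -0.12 ± 0.0316 (SE, adjusted p = 0.00141), and its changes in Melan-A and B16F0 were -0.055 (adjusted p = 0.145) and -0.013 (adjusted p = 0.801).

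**Figure D3:**
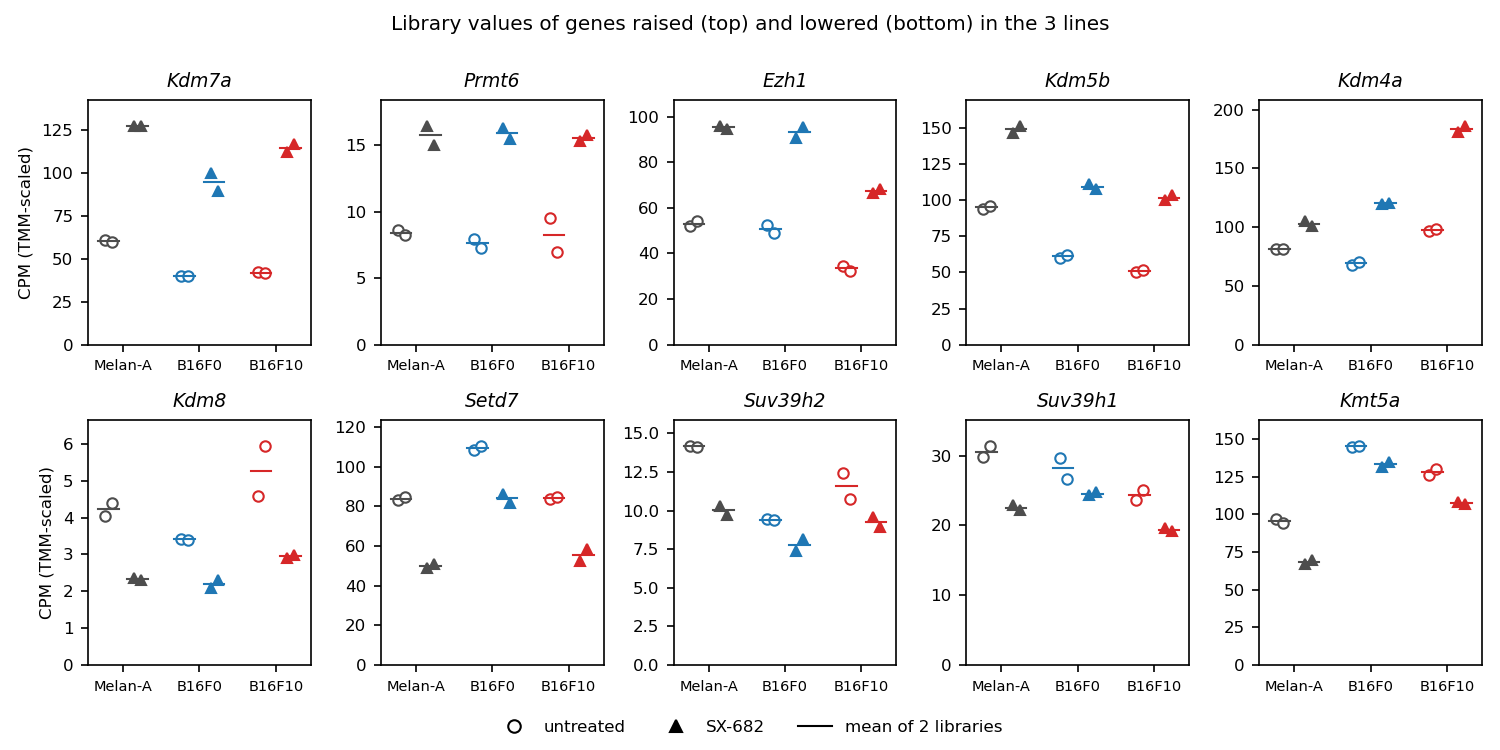
CPM (TMM-scaled, axes from 0) in each of the 12 libraries for 5 genes raised (top) and 5 lowered (bottom) by SX-682 in the 3 lines; open circles are untreated libraries, filled triangles SX-682 libraries and bars the mean of 2. In each panel the SX-682 points of a line lie on 1 side of its untreated points, as for Ezh1 in B16F10 with 34.6 and 32.5 against 66.5 and 68.1 CPM.

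Among the 6 writers of H3K9 methylation, 3 were lowered and 1 was raised in every line. Of all genes tested, 11.7% were lowered and 11.3% raised in all 3 lines. A set of 6 genes is too small to compare with these shares. SUV39H1 and SUV39H2 set H3K9 trimethylation at pericentromeric heterochromatin. Suv39h1 (ENSMUSG00000039231.18, chrX:8061171-8074760) measured 29.8 and 31.4 CPM in the untreated and 22.9 and 22.2 CPM in the SX-682 libraries of Melan-A, 29.8 and 26.6 against 24.4 and 24.8 CPM in B16F0, and 23.7 and 25.1 against 19.7 and 19.1 CPM in B16F10. Both SX-682 libraries lay below both untreated ones in each line. It fell in Melan-A, with a log2 fold change of -0.44 ± 0.0577 (SE, adjusted p = 1.51e-07), in B16F0 with -0.20 ± 0.0600 (SE, adjusted p = 0.00617) and in B16F10 with -0.33 ± 0.0626 (SE, adjusted p = 4.83e-05). Without replicate 1 of the untreated B16F0 libraries the B16F0 value was -0.12 (adjusted p = 0.212). Suv39h1 shares 14.6% of its exonic bases with a gene on the opposite strand.

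Suv39h2 measured 14.2 and 14.1 CPM in the untreated and 10.3 and 9.71 CPM in the SX-682 libraries of Melan-A, 9.44 and 9.37 against 7.36 and 8.14 CPM in B16F0, and 12.4 and 10.7 against 9.58 and 8.96 CPM in B16F10, with the SX-682 libraries below the untreated ones in each line. The change was -0.50 ± 0.0838 (SE, adjusted p = 9.13e-06) in Melan-A, -0.28 ± 0.0935 (SE, adjusted p = 0.0119) in B16F0 and -0.32 ± 0.0901 (SE, adjusted p = 0.00377) in B16F10. In the B16 lines it depended on single libraries: B16F0 gave -0.28 (adjusted p = 0.055) without untreated replicate 1 and -0.21 (adjusted p = 0.175) without SX-682 replicate 1, and B16F10 gave -0.21 (adjusted p = 0.121) without untreated replicate 1 and -0.27 (adjusted p = 0.0515) without SX-682 replicate 2. It shares 9.98% of its exonic bases with neighbors on the opposite strand. SETDB1, which silences retroelements, was lowered, with log2 fold changes of -0.15 (Melan-A), -0.19 (B16F0) and -0.18 (B16F10), the Melan-A call being lost without replicate 2 of its SX-682 libraries, at -0.13 (adjusted p = 0.0531).

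EHMT2 (G9a), which with EHMT1 (GLP) sets H3K9 mono- and dimethylation in euchromatin, moved the other way. Ehmt2 measured 257 and 262 CPM in the untreated and 283 and 280.1 CPM in the SX-682 libraries of Melan-A, 287 and 301 against 371 and 383 CPM in B16F0, and 268 and 270.0 against 383 and 379 CPM in B16F10, the untreated and treated libraries not overlapping in any line. The rise was 0.12 ± 0.0253 (SE, adjusted p = 0.000225) in Melan-A, 0.36 ± 0.0254 (SE, adjusted p = 5.21e-13) in B16F0 and 0.50 ± 0.0255 (SE, adjusted p = 2.03e-16) in B16F10, and it was larger in the B16 lines than in Melan-A by 0.31 ± 0.0311 (SE, adjusted p = 1.95e-09). Its partner Ehmt1 was not called, at -0.083 (Melan-A), 0.014 (B16F0) and 0.034 (B16F10) (smallest adjusted p = 0.0878), nor was Setdb2, at -0.027 (Melan-A), -0.026 (B16F0) and 0.19 (B16F10) (smallest adjusted p = 0.0943), although Setdb2 in B16F10 was 0.30 (adjusted p = 0.0311) without untreated replicate 1.

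All 3 KMT5 genes, which encode writers of H4K20 methylation, were lowered in all 3 lines. Of all genes tested, 11.7% were, and 3 genes are too few to compare with that share. KMT5A (SET8) sets H4K20 monomethylation and is known to vary through the cell cycle. Kmt5a measured 97.1 and 94.1 CPM in the untreated and 66.9 and 70.00 CPM in the SX-682 libraries of Melan-A, 145 and 146 against 131 and 135 CPM in B16F0, and 126 and 130.2 against 108 and 107 CPM in B16F10. The SX-682 libraries lay below the untreated ones in each line. The change was -0.48 ± 0.0325 (SE, adjusted p = 1.99e-13) in Melan-A, -0.12 ± 0.0313 (SE, adjusted p = 0.00131) in B16F0 and -0.25 ± 0.0320 (SE, adjusted p = 8.6e-08) in B16F10, and Melan-A fell further than the B16 lines, the difference of the responses being 0.30 ± 0.0394 (SE, adjusted p = 4.48e-07). Kmt5b and Kmt5c, which carry H4K20 to di- and trimethylation, were lowered, with log2 fold changes of -0.20 (Melan-A), -0.38 (B16F0) and -0.30 (B16F10) for Kmt5b and -0.18 (Melan-A), -0.25 (B16F0) and -0.41 (B16F10) for Kmt5c (largest adjusted p = 0.00262 for Kmt5b and 0.0125 for Kmt5c). The Melan-A call of Kmt5c was lost without untreated replicate 2, at -0.15 (adjusted p = 0.104), and without SX-682 replicate 1, at -0.18 (adjusted p = 0.0518), or 2, at -0.16 (adjusted p = 0.109).

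Upstream sequence is shown for 2 genes raised in all 3 lines, Ezh1 and Kdm6a, and 2 lowered in all 3, Kdm8 and Suv39h1, because they stand on both sides of the response of H3K27, H3K9 and Jumonji enzymes. Each run is the 250 bases before a RefSeq transcription start (GRCm38.p6), read 5′ to 3′ on the gene's strand and free of annotated exons, with each CG pair in capitals. They lie at chr11:101226464-101226713 on the minus strand for Ezh1, chrX:18162325-18162574 on the plus strand for Kdm6a, chr7:125444370-125444619 on the plus strand for Kdm8 and chrX:8074761-8075010 on the minus strand for Suv39h1.
Ezh1: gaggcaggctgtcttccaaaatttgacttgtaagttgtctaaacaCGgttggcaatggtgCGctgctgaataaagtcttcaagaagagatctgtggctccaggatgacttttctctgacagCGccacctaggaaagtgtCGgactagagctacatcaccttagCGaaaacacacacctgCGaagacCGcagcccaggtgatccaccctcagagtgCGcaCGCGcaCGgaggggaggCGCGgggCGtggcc
Kdm6a: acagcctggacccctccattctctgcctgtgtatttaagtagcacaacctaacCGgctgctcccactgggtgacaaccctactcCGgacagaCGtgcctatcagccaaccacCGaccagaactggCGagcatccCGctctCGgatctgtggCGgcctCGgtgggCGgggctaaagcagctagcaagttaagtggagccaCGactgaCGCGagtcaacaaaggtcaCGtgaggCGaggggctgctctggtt
Kdm8: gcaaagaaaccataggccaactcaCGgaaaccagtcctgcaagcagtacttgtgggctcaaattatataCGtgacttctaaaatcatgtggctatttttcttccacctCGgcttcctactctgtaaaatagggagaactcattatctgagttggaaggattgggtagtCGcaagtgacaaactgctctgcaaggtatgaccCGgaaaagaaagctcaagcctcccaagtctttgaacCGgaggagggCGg
Suv39h1: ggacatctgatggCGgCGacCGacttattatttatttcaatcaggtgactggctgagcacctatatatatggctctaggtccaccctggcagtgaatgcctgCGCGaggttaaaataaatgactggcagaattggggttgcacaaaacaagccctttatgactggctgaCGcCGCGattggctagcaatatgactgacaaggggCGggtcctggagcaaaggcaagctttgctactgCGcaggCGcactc

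These runs hold 14, 15, 7 and 11 CG pairs in this order. A window of 250 bases before and 50 bases after the start was available for 46 of the 59 members, 59 windows in all since some genes have several starts. The median window of the members held 28 CG pairs at 63.0% G and C, against 7 pairs at 52.7% over 32851 windows of all genes, and the windows of members raised in all 3 lines (median 28) and lowered in all 3 (median 22) both lay above that. Motifs were counted on both strands. The E-box CACGTG was in 7 of the 59 member windows (11.9%, against 7.15% of all windows), which belong to 6 genes. Of these windows, 4 were among the 17 of members raised in all 3 lines and 0 among the 17 of members lowered in all 3. The 17 raised and 17 lowered windows come from 14 and 10 genes, and windows of 1 gene are not independent. The 4 belong to Ehmt2, with more than 1 window, Kdm4c and Kdm6a. The Kdm6a run above holds the E-box. The E2F forms TTTGGCGC and TTTCCCGC were each in 1 window, of Ezh2 and of Kmt5c (0.514% and 1.07% of all windows). The cAMP response element TGACGTCA was in the windows of Prmt9 and Suv39h2 (1.79% of all), the ETS site CCGGAAGT in that of Setd4 (3.89% of all), and the C/EBP-ATF element TTGCATCA in 0 of 59 (0.895% of all). A match is a run of letters in these windows and not a bound site.

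The H3K4 writers did not move together. KMT2A (MLL1) and KMT2B act at promoters, KMT2C and KMT2D at enhancers, and SETD1A and SETD1B set most H3K4 trimethylation. Kmt2a was raised in each line, with log2 fold changes of 0.21 (Melan-A), 0.43 (B16F0) and 0.25 (B16F10), and Setd1b was lowered in each, with log2 fold changes of -0.57 (Melan-A), -0.45 (B16F0) and -0.17 (B16F10). The Setd1b call in B16F10 (adjusted p = 0.036) was lost with library size alone, at -0.15 (adjusted p = 0.0615). It was also lost without untreated replicate 1, at -0.19, without untreated replicate 2, at -0.15, and without SX-682 replicate 2, at -0.082. The other 4 fell in Melan-A and rose in B16F0.

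Kmt2d (ENSMUSG00000048154.17, chr15:98831669-98871204) had the widest range among these. Kmt2d measured 83.8 and 83.1 CPM in the untreated and 72.6 and 73.00 CPM in the SX-682 libraries of Melan-A, 73.1 and 78.1 against 125 and 129 CPM in B16F0, and 109 and 110.1 against 129 and 120.5 CPM in B16F10. The SX-682 libraries were below the untreated ones in Melan-A and above them in B16F0 and B16F10. The change was -0.20 ± 0.0359 (SE, adjusted p = 2.88e-05) in Melan-A, 0.75 ± 0.0360 (SE, adjusted p = 6.87e-17) in B16F0 and 0.19 ± 0.0353 (SE, adjusted p = 4.11e-05) in B16F10. The mean response of the B16 lines exceeded that of Melan-A by 0.67 ± 0.0438 (SE, adjusted p = 3.04e-13), and the B16F10 response minus that of B16F0 was -0.56 ± 0.0503 (SE, adjusted p = 5.06e-10).

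Kmt2c had log2 fold changes of -0.14 (Melan-A), 0.35 (B16F0) and -0.050 (B16F10), with the B16F10 value not called (adjusted p = 0.428). The Melan-A value was -0.12 (adjusted p = 0.0976) without untreated replicate 2 and -0.071 (adjusted p = 0.386) without SX-682 replicate 1. Kmt2b had log2 fold changes of -0.13 (Melan-A), 0.29 (B16F0) and 0.026 (B16F10), again with the B16F10 value not called (adjusted p = 0.638). Its Melan-A value was -0.11 (adjusted p = 0.0656) without untreated replicate 2, -0.12 (adjusted p = 0.0659) without SX-682 replicate 1 and -0.11 (adjusted p = 0.0843) without SX-682 replicate 2. Setd1a had log2 fold changes of -0.19 (Melan-A), 0.36 (B16F0) and 0.12 (B16F10), its Melan-A call being lost without untreated replicate 1, at -0.14 (adjusted p = 0.113), or SX-682 replicate 2, at -0.14 (adjusted p = 0.145). Setd1a shares 52.3% of its exonic bases with other annotated genes, mostly with a gene on the same strand, so its counts are uncertain.

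KMT2E and SETD5 carry SET domains without a clear histone methyltransferase activity. Kmt2e measured 95.7 and 95.97 CPM in the untreated and 86.6 and 89.9 CPM in the SX-682 libraries of Melan-A, 113 and 114 against 82.4 and 83.8 CPM in B16F0, and 101 and 103 against 109 and 104 CPM in B16F10. It was lowest against its untreated libraries in B16F0. The change was -0.12 ± 0.0318 (SE, adjusted p = 0.00239) in Melan-A, -0.45 ± 0.0327 (SE, adjusted p = 1.18e-12) in B16F0 and 0.066 ± 0.0324 (SE, adjusted p = 0.0905) in B16F10, and B16F10 differed from B16F0 by 0.51 ± 0.0460 (SE, adjusted p = 5.28e-10). The B16F10 value was called with library size alone, at 0.082 (adjusted p = 0.0389), and without replicate 2 of its SX-682 libraries, at 0.099 (adjusted p = 0.043). The small Melan-A fall was lost without replicate 1 of its SX-682 libraries, at -0.081 (adjusted p = 0.126). Kmt2e shares 9.31% of its exonic bases with Srpk2 on the opposite strand. Setd5 was raised, with log2 fold changes of 0.068 (Melan-A), 0.075 (B16F0) and 0.22 (B16F10) (adjusted p = 0.0293, 0.018 and 2.15e-08). The Melan-A call of Setd5 was lost without untreated replicate 1, at 0.066 (adjusted p = 0.0828), and without SX-682 replicate 1, at 0.078 (adjusted p = 0.0585), or 2, at 0.078 (adjusted p = 0.0585). Its B16F0 call was lost with library size alone, at 0.060 (adjusted p = 0.0568), without untreated replicate 1, at 0.038 (adjusted p = 0.356), and without SX-682 replicate 2, at 0.063 (adjusted p = 0.0896).

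Among the H3K36 writers, Nsd1 and Nsd2 also fell in Melan-A and rose in B16F0. NSD1, NSD2 and NSD3 set H3K36 dimethylation and SETD2 the trimethylation of transcribed genes. Nsd2 measured 196 and 193 CPM in the untreated and 151 and 148 CPM in the SX-682 libraries of Melan-A, 252 and 252 against 283 and 299.6 CPM in B16F0, and 234 and 230.4 against 256 and 250.4 CPM in B16F10. Its SX-682 libraries were below the untreated ones in Melan-A and, in B16F0 and B16F10, above them. The change was -0.38 ± 0.0275 (SE, adjusted p = 1.13e-12) in Melan-A, 0.20 ± 0.0271 (SE, adjusted p = 1.87e-07) in B16F0 and 0.13 ± 0.0273 (SE, adjusted p = 0.000239) in B16F10, the B16 response minus that of Melan-A being 0.54 ± 0.0336 (SE, adjusted p = 7.53e-14). Nsd1 measured 29.8 and 30.9 CPM in the untreated and 26.2 and 26.6 CPM in the SX-682 libraries of Melan-A, 5.21 and 4.04 against 6.45 and 5.46 CPM in B16F0, and 27.2 and 29.2 against 30.6 and 32.4 CPM in B16F10. The B16F0 libraries, treated or not, were far below those of the other lines. The SX-682 change of Nsd1 was -0.20 ± 0.0666 (SE, adjusted p = 0.0133) in Melan-A, 0.37 ± 0.106 (SE, adjusted p = 0.00418) in B16F0 and 0.16 ± 0.0687 (SE, adjusted p = 0.0574) in B16F10. In B16F0 it was 0.20 (adjusted p = 0.161) without untreated replicate 2 and 0.23 (adjusted p = 0.174) without SX-682 replicate 1. In Melan-A it was -0.17 (adjusted p = 0.0851) without untreated replicate 2, -0.18 (adjusted p = 0.0892) without SX-682 replicate 1 and -0.20 (adjusted p = 0.0505) without SX-682 replicate 2. The B16F10 rise was called with library size alone, at 0.17 (adjusted p = 0.0363), with at least 10 counts in every library, at 0.15 (adjusted p = 0.048), in a fit of B16F10 by itself, at 0.16 (adjusted p = 0.0115), and without any 1 of the 4 B16F0 libraries.

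Setd2 measured 124 and 123 CPM in the untreated and 118 and 116 CPM in the SX-682 libraries of Melan-A, 72.7 and 81.1 against 99.1 and 103 CPM in B16F0, and 85.2 and 85.9 against 100.1 and 96.98 CPM in B16F10. It was raised in B16F0, with a log2 fold change of 0.40 ± 0.0385 (SE, adjusted p = 5.14e-10) and in B16F10 with 0.20 ± 0.0385 (SE, adjusted p = 4.11e-05), and the Melan-A difference was -0.079 ± 0.0361 (SE, adjusted p = 0.075). In a fit of Melan-A by itself Setd2 was called as lower there, at -0.073 (adjusted p = 0.034), which would add it to the members called in opposite directions. The B16 lines exceeded Melan-A in their response by 0.38 ± 0.0452 (SE, adjusted p = 6.31e-08). Nsd3 was called in B16F10, with a log2 fold change of 0.19 ± 0.0334 (SE, adjusted p = 1.83e-05), and measured -0.034 in Melan-A (adjusted p = 0.429) and 0.005 in B16F0 (adjusted p = 0.942).

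DOT1L, the H3K79 methyltransferase and the lone lysine methyltransferase of the list without a SET domain, separated the B16 lines. Dot1l measured 56.97 and 57.5 CPM in the untreated and 46.8 and 48.4 CPM in the SX-682 libraries of Melan-A, 100.4 and 102 against 101 and 101 CPM in B16F0, and 91.5 and 87.8 against 56.3 and 60.6 CPM in B16F10. In B16F10 the SX-682 libraries were far below the untreated ones, and in B16F0 they overlapped. The change was -0.27 ± 0.0380 (SE, adjusted p = 6.64e-07) in Melan-A, -0.003 ± 0.0358 (SE, adjusted p = 0.992) in B16F0 and -0.62 ± 0.0378 (SE, adjusted p = 1.45e-14) in B16F10. The difference between B16F10 and B16F0 was -0.62 ± 0.0521 (SE, adjusted p = 1.57e-10).

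**Figure D4:**
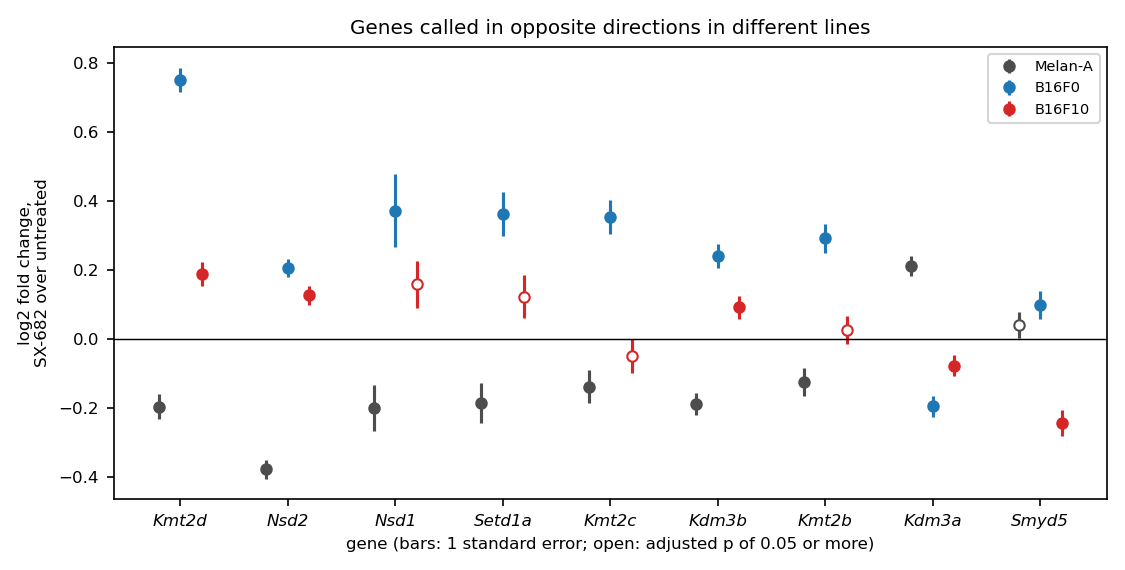
Log2 fold change of SX-682 over untreated with 1 SE (y axis) for the 9 members called in opposite directions in different lines, open points marking an adjusted p of 0.05 or more. Kmt2d, Nsd2, Nsd1, Setd1a, Kmt2c, Kdm3b and Kmt2b fell in Melan-A and rose in B16F0, Kdm3a did the reverse, and Smyd5 rose in B16F0, a call that several alternatives lost, and fell in B16F10.

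The KDM3 pair, which removes H3K9 mono- and dimethylation, moved in opposite senses. Kdm3a measured 146 and 154 CPM in the untreated and 174 and 174 CPM in the SX-682 libraries of Melan-A, 121 and 121 against 107 and 104 CPM in B16F0, and 122 and 122 against 117 and 114 CPM in B16F10. It was higher with SX-682 in Melan-A and lower in both B16 lines. The change was 0.21 ± 0.0291 (SE, adjusted p = 4.08e-07) in Melan-A, -0.20 ± 0.0309 (SE, adjusted p = 3.44e-06) in B16F0 and -0.078 ± 0.0308 (SE, adjusted p = 0.0353) in B16F10, and the B16 lines differed from Melan-A by -0.35 ± 0.0364 (SE, adjusted p = 5.28e-09). The B16F10 call of Kdm3a was lost with library size alone, at -0.063 (adjusted p = 0.0947), without untreated replicate 1, at -0.081 (adjusted p = 0.0995), or 2, at -0.082 (adjusted p = 0.0985), and without SX-682 replicate 2, at -0.060 (adjusted p = 0.232). Kdm3b measured 106 and 105 CPM in the untreated and 93.7 and 91.5 CPM in the SX-682 libraries of Melan-A, 61.1 and 59.7 against 72.4 and 70.2 CPM in B16F0, and 79.1 and 78.9 against 83.00 and 85.3 CPM in B16F10, lower with SX-682 in Melan-A and higher in the B16 lines. Its change was -0.19 ± 0.0320 (SE, adjusted p = 9.56e-06) in Melan-A, 0.24 ± 0.0348 (SE, adjusted p = 8.75e-07) in B16F0 and 0.091 ± 0.0338 (SE, adjusted p = 0.0255) in B16F10, the B16 response minus that of Melan-A being 0.36 ± 0.0402 (SE, adjusted p = 2.2e-08). The B16F10 call of Kdm3b was lost with no filter on low counts, at 0.082 (adjusted p = 0.0972). It was also lost without untreated replicate 1, at 0.093, without untreated replicate 2, at 0.082, and without SX-682 replicate 2, at 0.073. Kdm3b shares 24.6% of its exonic bases with a gene on the opposite strand.

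SETD3, SETD6 and SETD7 are known mainly for substrates other than histones, SETD3 for a histidine of actin and SETD6 for the NF-kappaB subunit RelA. SETD4 was listed with them. Setd7 (ENSMUSG00000037111.9, chr3:51515319-51560879), which also monomethylates H3K4 in vitro, measured 83.2 and 84.7 CPM in the untreated and 48.95 and 51.1 CPM in the SX-682 libraries of Melan-A, 108 and 110.5 against 86.4 and 81.7 CPM in B16F0, and 83.8 and 84.5 against 52.2 and 58.4 CPM in B16F10. All SX-682 libraries lay below the untreated ones of their line. The fall was -0.74 ± 0.0410 (SE, adjusted p = 2.05e-15) in Melan-A, -0.38 ± 0.0400 (SE, adjusted p = 2.64e-09) in B16F0 and -0.61 ± 0.0422 (SE, adjusted p = 2.76e-13) in B16F10. Setd3, Setd4 and Setd6 rose in each line. Setd3 had log2 fold changes of 0.16 (Melan-A), 0.24 (B16F0) and 0.43 (B16F10) (largest adjusted p = 2.29e-05), and Setd6 had 0.17 (Melan-A), 0.41 (B16F0) and 0.76 (B16F10). The Melan-A call of Setd6 (adjusted p = 0.0332) was lost in a fit of Melan-A by itself, at 0.17 (adjusted p = 0.0898). It was also lost without untreated replicate 2, at 0.094, and without SX-682 replicates 1, at 0.19, or 2, at 0.16.

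Setd4 was low, at 2.004 and 2.21 CPM in the untreated and 3.66 and 3.06 CPM in the SX-682 libraries of Melan-A, 1.91 and 1.41 against 2.81 and 2.56 CPM in B16F0, and 0.810 and 0.986 against 1.20 and 1.97 CPM in B16F10. The SX-682 libraries were above the untreated ones in each line. The change was 0.67 ± 0.207 (SE, adjusted p = 0.00776) in Melan-A, 0.69 ± 0.222 (SE, adjusted p = 0.0103) in B16F0 and 0.81 ± 0.254 (SE, adjusted p = 0.00801) in B16F10. These calls were fragile. They were lost in Melan-A without untreated replicate 1, at 0.61 (adjusted p = 0.054), or SX-682 replicate 1, at 0.55 (adjusted p = 0.0903), in B16F0 without untreated replicate 2, at 0.49 (adjusted p = 0.141), or SX-682 replicate 1, at 0.62 (adjusted p = 0.0723), and in B16F10 without untreated replicate 1, at 0.68 (adjusted p = 0.0794), or SX-682 replicate 2, at 0.42 (adjusted p = 0.269).

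SMYD proteins split their SET domain with a zinc-binding MYND domain. Smyd3, which methylates the kinase MAP3K2, measured 32.5 and 29.8 CPM in the untreated and 41.5 and 43.1 CPM in the SX-682 libraries of Melan-A, 16.3 and 16.6 against 28.1 and 26.2 CPM in B16F0, and 25.8 and 26.1 against 37.5 and 37.4 CPM in B16F10. Its SX-682 libraries exceeded the untreated ones in each line. The rise was 0.44 ± 0.0509 (SE, adjusted p = 1.43e-08) in Melan-A, 0.73 ± 0.0586 (SE, adjusted p = 9.8e-12) in B16F0 and 0.53 ± 0.0546 (SE, adjusted p = 1.27e-09) in B16F10. Smyd2, which methylates p53, and Smyd4 were raised in B16F10, with log2 fold changes of 0.31 (adjusted p = 1.16e-06) for Smyd2 and 0.31 (adjusted p = 9.29e-05) for Smyd4, and not called in the other lines, although Smyd4 in B16F0 was called with DESeq2, at 0.16 (adjusted p = 0.0343), and without SX-682 replicate 2, at 0.21 (adjusted p = 0.017). Smyd2 shares 29.96% of its exonic bases with a gene on the opposite strand. Smyd5 fell in B16F10, with a log2 fold change of -0.24 ± 0.0379 (SE, adjusted p = 2.3e-06), and its B16F0 rise of 0.098 ± 0.0403 (SE, adjusted p = 0.045) was lost without any 1 of the 4 B16F0 libraries and of the 2 untreated B16F10 libraries, with values from 0.077 to 0.12, as well as with library size alone, at 0.082 (adjusted p = 0.0894), and with no filter on low counts, at 0.092 (adjusted p = 0.103). Smyd1, known from striated muscle, was called in B16F10 on 3 and 8 counts untreated and 1 and 0 with SX-682, which is at or under the floor of 3 counts per library in 3 of the 4 libraries, and the call was lost with DESeq2 and without untreated replicate 2 or SX-682 replicate 2.

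Among the arginine methyltransferases, Prmt6 stood out by size. PRMT6 (ENSMUSG00000049300.11, chr3:110246109-110250998) asymmetrically dimethylates H3R2 and thereby opposes H3K4 trimethylation. Prmt6 measured 8.63 and 8.26 CPM in the untreated and 16.5 and 15.04 CPM in the SX-682 libraries of Melan-A, 7.97 and 7.29 against 16.3 and 15.5 CPM in B16F0, and 9.51 and 6.96 against 15.3 and 15.8 CPM in B16F10. Each SX-682 library was above each untreated one of its line, and the untreated B16F10 pair was the widest apart. The rise was 0.90 ± 0.0948 (SE, adjusted p = 2.56e-09) in Melan-A, 1.06 ± 0.100 (SE, adjusted p = 2.68e-10) in B16F0 and 0.92 ± 0.101 (SE, adjusted p = 4.29e-09) in B16F10, near 2-fold at 1.87, 2.09 and 1.89. Prmt6 shares 23.4% of its exonic bases with a gene on the opposite strand.

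PRMT1 gives most asymmetric arginine dimethylation in cells, and CARM1 (PRMT4) coactivates nuclear receptors. Prmt1 measured 278 and 264 CPM in the untreated and 238 and 240.4 CPM in the SX-682 libraries of Melan-A, 209 and 198 against 201 and 208 CPM in B16F0, and 308 and 314 against 302 and 304 CPM in B16F10. It was lower with SX-682 in Melan-A, with -0.18 ± 0.0279 (SE, adjusted p = 3.14e-06), and was not called in B16F0, at 0.005 (adjusted p = 0.934), or B16F10, at -0.036 (adjusted p = 0.305). The response of the B16 lines differed from that of Melan-A by 0.16 ± 0.0344 (SE, adjusted p = 0.000324). Carm1 was lowered in Melan-A, with a log2 fold change of -0.19 ± 0.0404 (SE, adjusted p = 0.000194), and B16F10, with -0.19 ± 0.0407 (SE, adjusted p = 0.000249), and measured 0.058 ± 0.0391 (SE, adjusted p = 0.237) in B16F0. It shares 21.1% of its exonic bases with Yipf2 on the opposite strand.

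PRMT5, with its cofactor WDR77, makes symmetric dimethylarginine on splicing proteins and histones. Prmt5 measured 80.3 and 78.8 CPM in the untreated and 81.1 and 81.9 CPM in the SX-682 libraries of Melan-A, 122 and 119.5 against 115 and 118 CPM in B16F0, and 105 and 105 against 93.4 and 99.1 CPM in B16F10. Its change was 0.035 ± 0.0330 (SE, adjusted p = 0.412) in Melan-A, -0.054 ± 0.0325 (SE, adjusted p = 0.18) in B16F0 and -0.13 ± 0.0332 (SE, adjusted p = 0.00175) in B16F10, and the B16F10 value was -0.093 (adjusted p = 0.0577) without replicate 1 of the SX-682 libraries. Prmt9, the other symmetric enzyme, was raised in Melan-A, with a log2 fold change of 0.39 ± 0.0632 (SE, adjusted p = 5.22e-06), and in B16F10, with 0.28 ± 0.0699 (SE, adjusted p = 0.000947), the latter being 0.20 (adjusted p = 0.0524) without untreated replicate 1. Prmt7, which makes monomethylarginine, rose in Melan-A, with a log2 fold change of 0.36 ± 0.0401 (SE, adjusted p = 6.04e-09), and B16F0, with 0.30 ± 0.0343 (SE, adjusted p = 9.71e-09). Prmt3, which acts on a ribosomal protein, fell in B16F10, with a log2 fold change of -0.18 ± 0.0447 (SE, adjusted p = 0.0013).

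SX-682 changed the B16 lines and Melan-A unequally for 31 of the 58 members, 53.4% against 35.8% of all genes tested, in a direct test of the mean B16 change minus the Melan-A change. It differed between B16F10 and B16F0 for 32 members, 55.2% against 30.3%. The median difference of the B16 lines from Melan-A was 0.13 over the members and 0.020 over all genes tested. In size the differences of the members were smaller. The median absolute difference was 0.18 against 0.29 over all genes tested for the B16 lines against Melan-A, and 0.17 against 0.28 for B16F10 against B16F0. All genes tested were not matched to the members for level. Of the members that passed, 3 in each comparison reached an absolute log2 value of 0.5: Kmt2d, Nsd2 and Kdm4a for the B16 lines against Melan-A, and Dot1l, Kmt2d and Kmt2e for B16F10 against B16F0. For Kdm4a the difference from Melan-A was 0.52 ± 0.0388 (SE, adjusted p = 4.5e-12).

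Without treatment the lines also differed in these genes, though by less than in all genes tested, which were not matched for level. The median absolute log2 difference of the members was 0.35 against 0.71 over all genes tested for B16F0 against Melan-A. It was 0.29 against 0.68 for B16F10 against Melan-A and 0.32 against 0.46 for B16F10 against B16F0. Setd6, Prmt7 and Dot1l were higher in both B16 lines than in Melan-A. Setd6 (ENSMUSG00000031671.11, chr8:95715881-95719010) measured 9.71 and 8.73 CPM in Melan-A, 61.3 and 60.5 CPM in B16F0 and 37.6 and 38.7 CPM in B16F10 in the untreated libraries. The lines did not overlap. Its log2 difference from Melan-A was 2.72 ± 0.0531 (SE, adjusted p = 1.18e-27) in B16F0 and 2.05 ± 0.0553 (SE, adjusted p = 5.04e-24) in B16F10, or 6.61- and 4.15-fold. Prmt7 measured 27.6 and 28.9 CPM in Melan-A, 99.2 and 99.1 CPM in B16F0 and 78.4 and 74.5 CPM in B16F10, with differences of 1.81 ± 0.0374 (SE, adjusted p = 5.34e-27) and 1.44 ± 0.0382 (SE, adjusted p = 3.55e-24). On the log2 scale Dot1l was higher by 0.82 in B16F0 and 0.65 in B16F10, Setd3 by 0.65 and 0.28, and Prmt3 by 0.34 and 0.70.

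Nsd1 (ENSMUSG00000021488.8, chr13:55209782-55318325) was low in untreated B16F0. It measured 29.8 and 30.9 CPM in Melan-A, 5.21 and 4.04 CPM in B16F0 and 27.2 and 29.2 CPM in B16F10, and the B16F0 libraries lay below the others with no overlap. B16F0 differed from Melan-A by a log2 value of -2.71 ± 0.0834 (SE, adjusted p = 1.43e-22) and B16F10 from B16F0 by 2.603 ± 0.0854 (SE, adjusted p = 2.04e-21), a 6.08-fold difference between the B16 lines. Lower in both B16 lines than in Melan-A, on the log2 scale, were Kmt5b (-1.18 in B16F0 and -0.53 in B16F10), Smyd3 (-0.92 and -0.26), Kdm3b (-0.81 and -0.42), Kdm5b (-0.64 and -0.90) and Kdm1a (-0.36 and -0.69). Ezh1 was lower in B16F10 than in Melan-A, with a log2 difference of -0.66 ± 0.0432 (SE, adjusted p = 1.83e-14), and than in B16F0, with -0.60 ± 0.0440 (SE, adjusted p = 5.82e-13). Setd4 was lower in B16F10 too, with log2 differences of -1.23 against Melan-A and -0.89 against B16F0, the latter being -0.64 (adjusted p = 0.0682) without untreated B16F0 replicate 1.

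B16F10 exceeded B16F0 on the log2 scale in Kdm5c, by 0.97 ± 0.0337 (SE, adjusted p = 9.06e-21), in Smyd5, by 0.80 ± 0.0386 (SE, adjusted p = 2.32e-17), and in Kdm5a, by 0.67 ± 0.0269 (SE, adjusted p = 3.35e-19), and was below it in Setd6, with a log2 difference of -0.67, and Prmt9, with -0.58. Over all members, 16 were higher and 31 lower in untreated B16F0 than in Melan-A, against 35.3% and 40.6% of all genes tested. For B16F10 against Melan-A, 22 were higher and 26 lower, against 33.4% and 40.8%, and with library size alone as the scaling the split was 14 higher and 35 lower. The median of all genes tested in that comparison was -0.10 with TMM and -0.29 with library size alone. For B16F10 against B16F0, 22 were higher and 24 lower, against 30.8% and 31.2%. These comparisons use the same untreated libraries as the SX-682 comparisons.

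**Figure D5:**
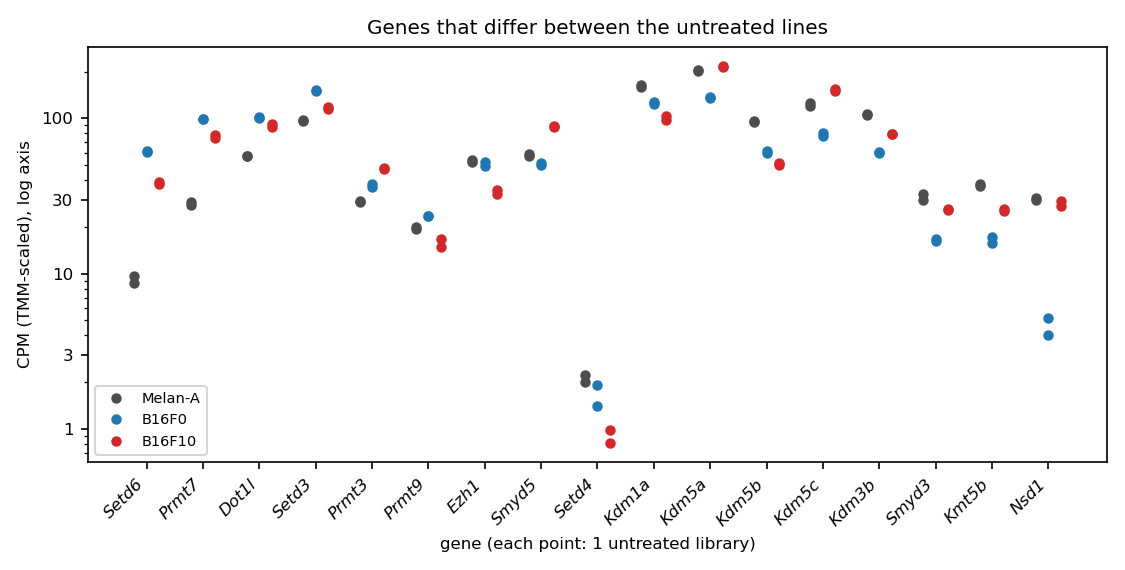
CPM (TMM-scaled, log axis) of the 17 members that differ most in 1 or more of the 3 comparisons of untreated lines, each point 1 untreated library of Melan-A, B16F0 or B16F10, ordered by the difference between B16F0 and Melan-A. Setd6 lies at 9.71 and 8.73 CPM in Melan-A and 61.3 and 60.5 CPM in B16F0, and Nsd1 at 5.21 and 4.04 CPM in B16F0.

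Per kilobase of exon, Prmt1 was the highest member in each untreated line, at 79.1 ± 2.73 CPM per kb (SD, n = 2) for Melan-A, 59.5 ± 2.27 for B16F0 and 90.8 ± 1.37 for B16F10. Ehmt2 came next, at 47.2 ± 0.58, 53.5 ± 1.76 and 49.02 ± 0.247 CPM per kb. In Melan-A, Ezh2 (32.1 ± 0.976) and Kdm1a (31.2 ± 0.53) followed within their spread of each other. In B16F0 the next were Setd6 (32.0 ± 0.29), Prmt5 (30.5 ± 0.495) and Ezh2 (30.1 ± 0.269), Prmt5 and Ezh2 lying within their spread. At the low end, Setd4, Smyd1, Kdm4d and Prmt8 were at most 0.392 CPM per kb in each line, and Nsd1 joined them in B16F0 at 0.265 ± 0.047. Across the 58 members the mean change with SX-682 had a rank correlation of 0.043 with exonic length, 0.106 with gene span and 0.132 with mean level, as a description across genes.

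Subunits and cofactors of the same complexes were read from a list of 52 partner genes, of which 51 were tested. In Melan-A 12 (23.5%) were raised and 24 (47.1%) lowered, against 23.4% and 24.7% of all genes tested. In B16F0 these were 15 (29.4%) and 24 (47.1%), against 25.1% and 25.0%, and in B16F10 15 (29.4%) and 26 (51%), against 25.5% and 25.3%. In all 3 lines 4 (7.84%) were raised and 17 (33.3%) lowered, against 11.3% and 11.7%. The raised shares were thus near or below the background. Their median changes were -0.092, -0.090 and -0.14. The 4 raised in all 3 lines were Rcor3, a CoREST scaffold of KDM1A (0.36, 0.72 and 0.68 in Melan-A, B16F0 and B16F10), Mllt3, a DOT1L partner (0.32, 0.28 and 0.52), Wiz, a zinc-finger protein of the G9a-GLP complex (0.13, 0.99 and 0.47), and Riok1, a PRMT5 adaptor (0.13, 0.24 and 0.23). Among those lowered in all 3, the largest falls were of Wdr77, the PRMT5 cofactor (-0.52, -0.71 and -1.02), Epop, a PRC2 accessory subunit (-0.48, -0.87 and -1.22), Zfp644, another G9a-GLP partner (-0.42, -0.47 and -0.38), and Hdac1, the deacetylase of CoREST (-0.45, -0.47 and -0.36). Suz12, a PRC2 core subunit, was lowered too (-0.21, -0.24 and -0.19), while Eed, the other, was not called in any line (-0.10, -0.074 and 0.057).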

How the data were processed

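RNA-seq of 12 libraries was analysed (3 lines, untreated or with SX-682, 2 libraries each). The authors deposited raw gene counts, not normalized, on mm10 (GRCm38) coordinates; the submitters' notes name cutadapt, STAR and DESeq2, and the counting program and its strand setting are not given in the sources used here. Members, gene lists and the rule for named genes were chosen with earlier results of these data known. The rule takes the largest changes shared by the lines, within a line and between untreated lines, opposite calls, and a set list of enzymes. Other members were named as paralogs of the same role, and Kdm4a and the members called in no line after their values were seen. Suz12 and Eed, of the partner list, were also named outside the rule. Counts were fitted for all 18338 genes in edgeR 4.0.16 (R 4.3.3) as a single quasi-likelihood fit of 6 groups, with TMM scaling, edgeR's expression filter, a prior count of 0.125, and p-values adjusted by Benjamini-Hochberg, called at 0.05. SE was derived from the F statistic (6 residual and 21.9 prior degrees of freedom). The fit was tested on simulated data. A floor of 3 counts per library, which covers counting error only, was used. Replicates of a group differed by more than counting noise (chi-square per gene 2.87 to 5.25). Gene models came from GENCODE M21, matching 59 of 59 members by identifier, and promoters from RefSeq (GRCm38.p6). Alternatives were other scaling (RLE or library size alone), DESeq2 1.42.0, other filters (none, or 10 or more counts throughout), lines fitted separately, a block for replicate number, a minimum log2 fold change of 0.5 in size, and leaving out each library.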

Additional observations from a re-analysis of the deposited data

Results flagged for a closer look

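All members whose response to SX-682 differed between lines, in edgeR's test of the difference itself with Benjamini-Hochberg adjustment, are given here, 31 for the B16 lines against Melan-A and 32 for B16F10 against B16F0. Values are differences of log2 fold changes, by size. As the mean of the B16F0 and B16F10 changes minus the Melan-A change, the differences among lysine methyltransferases were 0.67 for Kmt2d, 0.54 for Nsd2, 0.46 for Nsd1, 0.43 for Setd1a, 0.42 for Setd6, 0.38 for Setd2, 0.31 for Ehmt2, 0.3 for Kmt5a, 0.29 for Kmt2c, 0.28 for Kmt2b, 0.26 for Setd1b, 0.25 for Setd7, 0.22 for Ezh2, 0.19 for Smyd3, 0.18 for Setd3, 0.13 for Kmt2a and 0.13 for Nsd3. Among the demethylases they were 0.52 for Kdm4a, 0.36 for Kdm3b, -0.35 for Kdm3a, 0.27 for Kdm5c, 0.27 for Kdm5b, 0.27 for Kdm7a, 0.19 for Kdm6b, 0.18 for Kdm4c, 0.13 for Kdm1a and 0.13 for Kdm5a. Among the arginine methyltransferases they were -0.18 for Prmt7, 0.16 for Prmt1, 0.13 for Carm1 and -0.13 for Prmt5.

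As the B16F10 change minus the B16F0 change, the differences among lysine methyltransferases were -0.62 for Dot1l, -0.56 for Kmt2d, 0.51 for Kmt2e, -0.4 for Kmt2c, 0.36 for Setd6, -0.34 for Smyd5, 0.34 for Smyd2, 0.28 for Ezh2, 0.28 for Setd1b, -0.26 for Kmt2b, -0.24 for Setd1a, -0.23 for Setd7, -0.19 for Setd2, 0.19 for Setd3, 0.18 for Nsd3, -0.18 for Kmt2a, 0.15 for Setd5, 0.14 for Ehmt2 and -0.13 for Kmt5a. For the demethylases these were -0.35 for Kdm5c, 0.26 for Kdm6b, 0.21 for Kdm6a, 0.21 for Kdm7a, -0.17 for Kdm5a, -0.16 for Kdm4c, 0.16 for Kdm5b, -0.15 for Kdm3b, 0.12 for Kdm4a and 0.12 for Kdm3a, and for the arginine methyltransferases -0.25 for Prmt3, -0.24 for Carm1 and -0.24 for Prmt7. Leaving out some single library lost the call of the difference from Melan-A for Carm1, Kdm5a, Kmt2a, Nsd3, Setd1b and Smyd3 (adjusted p up to 0.503) and that of the difference between B16F10 and B16F0 for Kdm3a, Kdm3b, Kdm4a, Kdm4c, Kdm5b, Kdm6a, Kdm7a, Kmt5a, Setd1a, Setd1b and Setd2 (adjusted p up to 0.259). Other scaling, other filters or DESeq2 also lost calls. Against Melan-A these were the calls of Carm1 and Smyd3. Between B16F10 and B16F0 they were those of Kdm3a, Kdm3b, Kdm4a, Kdm4c, Kdm6a, Kmt5a and Setd1a. Kdm3a and Kdm4a lost theirs with RLE scaling, with DESeq2 and with either other filter. Some members not listed gained a call under such settings. Groups of 2 libraries are too small for a test of single outlying libraries.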

How the results depend on the processing

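Counts of members are given as raised then lowered. Requiring a log2 fold change of 0.5 or more in size moved each count: 5 and 3 in Melan-A, 9 and 1 in B16F0, 11 and 4 in B16F10, 5 and 1 in all 3 lines, 3 for a response unequal in Melan-A and the B16 lines and 3 for one unequal in B16F10 and B16F0, and, untreated, 8 higher and 14 lower in B16F0 than in Melan-A, 5 and 10 in B16F10 than in Melan-A, and 9 and 4 in B16F10 than in B16F0. With library size alone, 14 members were higher and 35 lower in untreated B16F10 than in Melan-A. No other setting moved a count of members by over 1.5 times. Leaving out 1 library gave 18 to 21 and 18 to 23 in Melan-A, 26 to 29 and 12 to 14 in B16F0, 25 to 28 and 14 to 20 in B16F10, 15 to 18 and 8 to 11 in all 3 lines, 27 to 35 and 26 to 34 for the differing responses, and untreated 15 to 16 and 28 to 31, 19 to 23 and 23 to 26, and 21 to 23 and 21 to 24 in the same order as above.

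Same-numbered libraries did not deviate together (correlations across 11686 genes of -0.0094, 0.060 and 0.023 in Melan-A, B16F0 and B16F10). Blocking on replicate number gave counts of 21 and 24, 28 and 15, and 28 and 20 in the 3 lines, 18 and 11 in all 3, and 33 and 33 for the differing responses. The block also took the call from the B16F0 rise of Smyd5 (0.098 (adjusted p = 0.0591)) and gave one to Nsd1 in B16F10 (0.16 (adjusted p = 0.0245)), Setd2 in Melan-A (-0.079 (adjusted p = 0.042)) and Prmt2 in B16F0 (-0.11 (adjusted p = 0.0388)) and B16F10 (-0.10 (adjusted p = 0.0499)). Of 8505 values of the tested members under the alternatives, 8142 kept direction and side of the threshold, 227 lost and 125 gained a call, and 11 reversed, all with library size alone: for untreated B16F10 against Melan-A Ehmt2 (-0.13), Kdm5a (-0.10), Kmt2a (-0.18), Kmt2b (-0.087), Kmt2e (-0.097), Setd7 (-0.18), Kdm4c (-0.18) and Ehmt1 (-0.047), for B16F0 against Melan-A Nsd3 (-0.081), and for B16F10 against B16F0 Kdm6b (-0.091) and Kdm3a (-0.079). The cause was not tested. Smyd1 (0 to 62 counts per library) and Kdm4d (0 to 27) rest on few counts.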
